A study of Mus musculus with 87 samples.

Results

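Livers collected 28 hrs after partial hepatectomy (X28) were compared with livers collected 4 hrs after it (X4), by RNA-Seq of poly(A) RNA from individual animals. The members are the 6 libraries that the labels place in these groups and that have a deposited expression column, X28 replicates 1 to 3 and X4 replicates 4 to 6, of 80 labelled libraries with a column and 87 labelled samples in all. All mice were male C57BL/6, 12 to 14 weeks old, entrained to light and dark with food given only in the dark. In PH (partial hepatectomy) lobes holding most of the liver mass are resected; here it was done at ZT2 (Zeitgeber time, hours after lights on), so that X4 livers were taken at ZT6 of the same day and X28 livers at ZT6 of the next day, 24 hrs later. The C4 livers, from 3 unoperated mice killed at ZT6, are set beside both. The study lists C4 in a different experimental period from X28 and X4. Period and surgery therefore cannot be told apart within the libraries of a comparison with C4. No sham-operated group of 28 hrs was analysed here, so effects of resection and of surgery, anaesthesia or recovery cannot be told apart at that time.

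After resection the remaining hepatocytes, which are quiescent in the adult liver, leave that state and pass through G1, replicate their DNA and divide. Entry into G1 goes with a burst of immediate-early and cytokine-responsive genes and with the hepatic acute-phase response, the rapid secretion of plasma proteins after injury. Commitment to S phase follows the accumulation of D- and E-type cyclins and release of E2F transcription factors, which act on genes for replication proteins; genes needed in G2 and mitosis are held silent in resting cells by the DREAM complex, which binds CHR promoter elements, and are switched on by B-Myb and FoxM1. Because the operated liver keeps serving metabolism, its clock-driven, lipid, bile acid and detoxification genes can be followed in the same libraries.

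Values are given in RPKM (read counts scaled by exon length and by the mapped reads of the library), in the order X4 replicates 4, 5 and 6 and X28 replicates 1, 2 and 3. Differences are X28 minus X4 on the log2(RPKM + 0.25) scale with their standard error (SE), and understate changes of genes near or below 0.25 RPKM. A gene was called when limma's moderated test gave an adjusted p (Benjamini-Hochberg over 15396 genes tested) below 0.05 and the difference exceeded 0.5. All adjusted p-values below come from this fit, with 3 livers in each group. Transcript levels of a bulk liver cannot separate fewer cells of a type from less RNA per cell.

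Of the 15396 genes, 4353 (28.3%) were called: 3472 (22.6%) were higher and 881 (5.72%) lower at 28 hrs. Set against C4, 7018 genes (45.6%) were called at 4 hrs, 1800 higher (11.7%) and 5218 lower (33.9%), and 5031 (32.7%) at 28 hrs, 2217 higher (14.4%) and 2814 lower (18.3%). With the period term, added after seeing the data, the calls against C4 were 1045 higher and 4853 lower at 4 hrs and 881 higher and 1563 lower at 28 hrs; counts against C4 below are without it. These 3 comparisons share libraries, so their values are given side by side only. The median gene was higher by 0.20 in X28 than in X4, and the split into higher and lower depends on this shift. Of the called genes 79.8% were higher with RPKM as deposited, and 53.3% with every library brought to the same median, where 1919 (12.5%) were higher and 1679 (10.9%) lower. In X4 the 100 most abundant genes held 70.6 to 71.6% of all RPKM, against 63.1 to 67.5% in X28. Libraries correlated at 0.985 to 0.992 (Pearson's r across genes) within the groups and at 0.961 to 0.968 between them.

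X28 replicate 2 stood apart in its low values. It had 10159 genes with reads below the detection threshold of log2 RPKM -1.5, against 5336 to 6391 in the other 8 X4, X28 and C4 libraries, and 41.4% of genes without reads, against 52.1 to 53.9%. Without it, 3861 genes were called, 3067 higher and 794 lower. Among the X28 livers, replicate 3 had the lowest level of all 61 called genes of the mitosis list and replicate 1 the highest level of all 13 called genes of the cholesterol list. If replicate numbers follow the periods in which the study lists its groups, X28 and X4 came from different periods, and period and time after surgery cannot be told apart within the 6 libraries. With a period term in the fit of all groups, 4242 genes were called, 3484 higher and 758 lower.

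**Figure D1:**
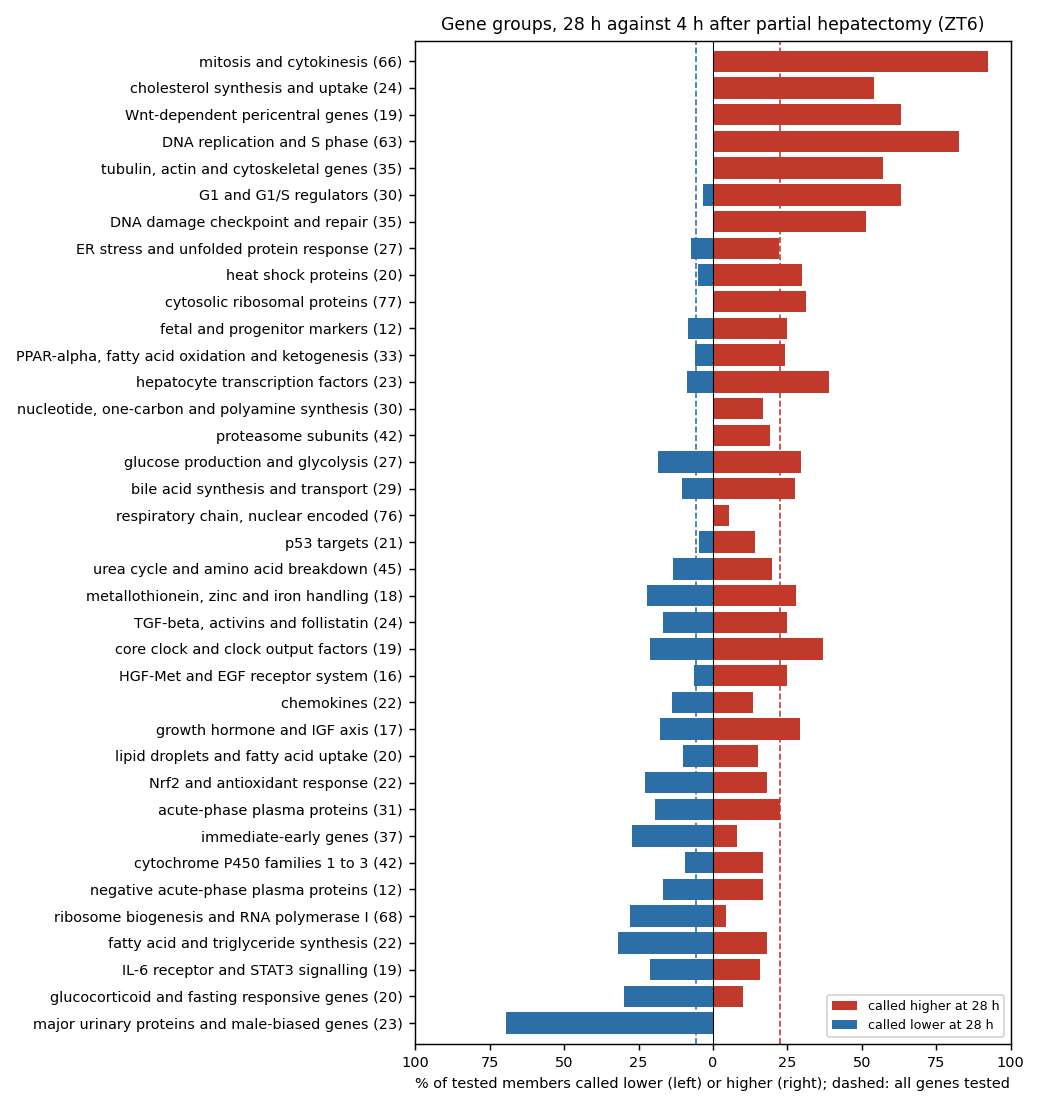
Share of tested members of each pathway list called higher (red, to the right) or lower (blue, to the left) at 28 hrs than at 4 hrs, with the number tested in parentheses and lists ordered by their median difference. The dashed lines mark the shares among all genes tested, 22.6% higher and 5.72% lower; mitosis and cytokinesis lies at the top with 61 of 66 members higher, and major urinary proteins and male-biased genes at the bottom with 16 of 23 lower.

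Genes of mitosis and cytokinesis rose nearly as a block. Of 66 members tested, 61 were called higher (92.4%, against 22.6% of all genes) and 0 lower, with a median difference of 1.55 against 0.20 for all genes. The libraries of the 2 groups did not overlap for 62 members. Lack of overlap was common: among all 15396 genes it held for 8143, with 6214 higher at 28 hrs and 1929 lower. Bub3, Kif15, Spc24, Mybl2 and Pttg1 were not called. Under the same median 59 were higher, with the period term 60 and without X28 replicate 2 60. Against C4, 56 members were higher at 28 hrs and 2 lower, while 0 were higher and 13 lower at 4 hrs. Of all genes, 14.4% were higher than C4 and 18.3% lower at 28 hrs, and 11.7% and 33.9% at 4 hrs.

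Cdc20, which activates the anaphase-promoting complex, was at 0.106, 0.132 and 0.0621 RPKM in the X4 livers and 4.53, 4.73 and 1.33 RPKM in the X28 livers. Ube2c, the ubiquitin-conjugating enzyme of that complex, was at 0.0762, 0.0543 and 0.0128 RPKM in the X4 livers and 2.97, 3.99 and 0.880 RPKM in the X28 livers. All X28 livers lay above all X4 livers for both, and their differences of 3.26 ± 0.42 (adjusted p = 6.6e-09) and 3.07 ± 0.35 (adjusted p = 2.7e-10) were the 2 largest of the list. Ccnb1, the cyclin that drives entry into mitosis, was at 0.0392, 0.0544 and 0.0236 RPKM in the X4 livers and 1.29, 1.90 and 0.538 RPKM in the X28 livers. Its kinase partner Cdk1 was at 0.182, 0.194 and 0.163 RPKM in the X4 livers and 2.85, 3.02 and 0.882 RPKM in the X28 livers. The differences were 2.25 ± 0.28 (adjusted p = 1.6e-09) and 2.39 ± 0.31 (adjusted p = 6.3e-09), with X28 replicate 3 the lowest X28 liver in each and still above every X4 liver. Ccnb2 rose from 0.103 ± 0.0297 to 2.05 ± 1.04 RPKM (mean ± SD, n = 3) and the S and G2 phase cyclin Ccna2 from 0.138 ± 0.0611 to 1.61 ± 0.830 RPKM. The topoisomerase Top2a, which disentangles sister chromatids, rose from 0.0590 ± 0.0342 to 1.21 ± 0.646 RPKM, the proliferation marker Mki67 from 0.0572 ± 0.0153 to 1.26 ± 0.597 RPKM, the chromosomal passenger kinase Aurkb from 0.0155 ± 0.0134 to 0.818 ± 0.430 RPKM and the spindle factor Tpx2 from 0.0363 ± 0.0193 to 1.23 ± 0.646 RPKM. Even so, levels at 28 hrs remained below 5 RPKM in every liver for each of these 10 genes.

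Promoters of this list were searched for the CHR element described above for genes of G2 and mitosis. List and motif were chosen with earlier results of these data known, so the shares describe the promoters and test nothing. Of 9206 tested genes with a promoter in the RefSeq-derived table (GRCm38.p6, 250 bases before to 50 after the start, both strands searched), 6.29% held TTTGAA, the core of the CHR element, together with a CCAAT box. Among the 54 members of the mitosis list with a promoter there, 33 (61.1%) held both. For all genes called higher the share was 7.88% and for those called lower 4.97%. The promoters of the members with the largest rise that hold both are shown, with the CHR core and the CCAAT boxes of either strand in capitals (ATTGG and TTCAAA are their reverse complements).
Cdc20 promoter (chr4:118437294-118437593, minus strand): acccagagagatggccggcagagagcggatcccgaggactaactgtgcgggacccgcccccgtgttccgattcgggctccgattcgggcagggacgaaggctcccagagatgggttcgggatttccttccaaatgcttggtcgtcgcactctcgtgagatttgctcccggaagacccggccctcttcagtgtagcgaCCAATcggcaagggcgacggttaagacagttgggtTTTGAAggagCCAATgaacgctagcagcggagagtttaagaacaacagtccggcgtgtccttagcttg
Ube2c promoter (chr2:164769679-164769978, plus strand): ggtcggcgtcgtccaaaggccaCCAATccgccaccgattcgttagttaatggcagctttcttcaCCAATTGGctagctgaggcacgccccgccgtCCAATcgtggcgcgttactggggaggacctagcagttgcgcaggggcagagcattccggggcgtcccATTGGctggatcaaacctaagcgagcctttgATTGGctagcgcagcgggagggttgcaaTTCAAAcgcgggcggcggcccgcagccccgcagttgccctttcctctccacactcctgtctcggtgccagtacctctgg
In Cdc20 a single CHR core lies between 2 CCAAT boxes close upstream of the start, and in Ube2c a CHR core on the opposite strand follows a series of CCAAT boxes. A match of letters is not evidence of binding.

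DNA replication genes rose as well, though less uniformly. Of 63 members 52 were called higher (82.5%, against 22.6% of all genes) and 0 lower, with a median difference of 0.85. Without X28 replicate 2 the count was 45, and under the same median 42. Orc2, Orc3, Orc4, Orc5 and Orc6 of the origin recognition complex were among the 11 members not called. At 4 hrs 30 members of this list were lower and 4 higher than C4, where 33.9% of all genes were lower and 11.7% higher. The median member lay 0.56 below C4 at 4 hrs and the median of all genes 0.26 below it. At 28 hrs 20 members were higher and 9 lower than C4, against 14.4% and 18.3% of all genes.

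Cdt1, which loads the replicative helicase at origins, was at 0.166, 0.129 and 0.182 RPKM in the X4 livers and 3.43, 4.10 and 1.27 RPKM in the X28 livers. Mcm5, a subunit of that helicase, was at 0.198, 0.222 and 0.0758 RPKM in the X4 livers and 4.16, 3.53 and 0.904 RPKM in the X28 livers. The rises were 2.83 ± 0.33 (adjusted p = 3.3e-10) and 2.71 ± 0.43 (adjusted p = 8.7e-07), without overlap between the groups, and X28 replicate 3 was again the lowest of its group. The other helicase subunits named by rule followed, Mcm2 from 0.276 ± 0.0488 to 3.45 ± 1.77 RPKM and Mcm6 from 0.385 ± 0.132 to 3.57 ± 2.05 RPKM. Cdc6, the partner of Cdt1 in loading, rose by 1.01 ± 0.25 and remained below 0.5 RPKM. Pcna, the sliding clamp of the polymerases, was already at 5.37, 5.32 and 5.09 RPKM at 4 hrs and rose by 0.75 ± 0.21 to 11.5, 10.4 and 6.05 RPKM. Rrm1, the large subunit of ribonucleotide reductase, rose by 1.11 ± 0.25 (adjusted p = 0.00021), but the small subunit Rrm2 was at 3.73, 8.02 and 3.58 RPKM in the X4 livers and 4.82, 3.73 and 1.11 RPKM in the X28 livers. Rrm2 overlapped between the groups (-0.73 ± 0.45, adjusted p = 0.20) and was above C4 (0.891, 1.18 and 1.5 RPKM) in every X4 liver.

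E2F sites (TTTCCCGC or TTTGGCGC, either strand) were found in the promoters of 15 of 53 replication genes in the table (28.3%), against 3.38% of all tested genes, 4.19% of those called higher and 3.63% of those called lower. The 2 members with the largest rise that hold one are shown with the site in capitals (GCGCCAAA is the reverse complement of TTTGGCGC).
Cdt1 promoter (chr8:122567765-122568064, plus strand): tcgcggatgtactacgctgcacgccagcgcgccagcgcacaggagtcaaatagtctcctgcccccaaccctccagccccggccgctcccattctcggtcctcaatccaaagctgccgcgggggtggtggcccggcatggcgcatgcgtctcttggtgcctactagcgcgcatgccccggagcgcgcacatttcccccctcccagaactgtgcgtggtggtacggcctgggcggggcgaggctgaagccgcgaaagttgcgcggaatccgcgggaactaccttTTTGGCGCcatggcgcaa
Mcm5 promoter (chr8:75109259-75109558, plus strand): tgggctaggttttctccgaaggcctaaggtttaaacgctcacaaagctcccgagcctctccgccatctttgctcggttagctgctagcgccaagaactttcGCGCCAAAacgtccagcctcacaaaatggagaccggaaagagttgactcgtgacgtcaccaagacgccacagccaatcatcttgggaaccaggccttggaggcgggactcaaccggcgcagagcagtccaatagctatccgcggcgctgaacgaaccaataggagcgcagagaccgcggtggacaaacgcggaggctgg
In Cdt1 the site lies just downstream of the annotated start, whereas in Mcm5 it lies upstream of it. In the mitosis list 3 of 54 promoters (5.56%) held an E2F site, and in the replication list 4 of 53 (7.55%) held the CHR core with CCAAT.

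**Figure D2:**
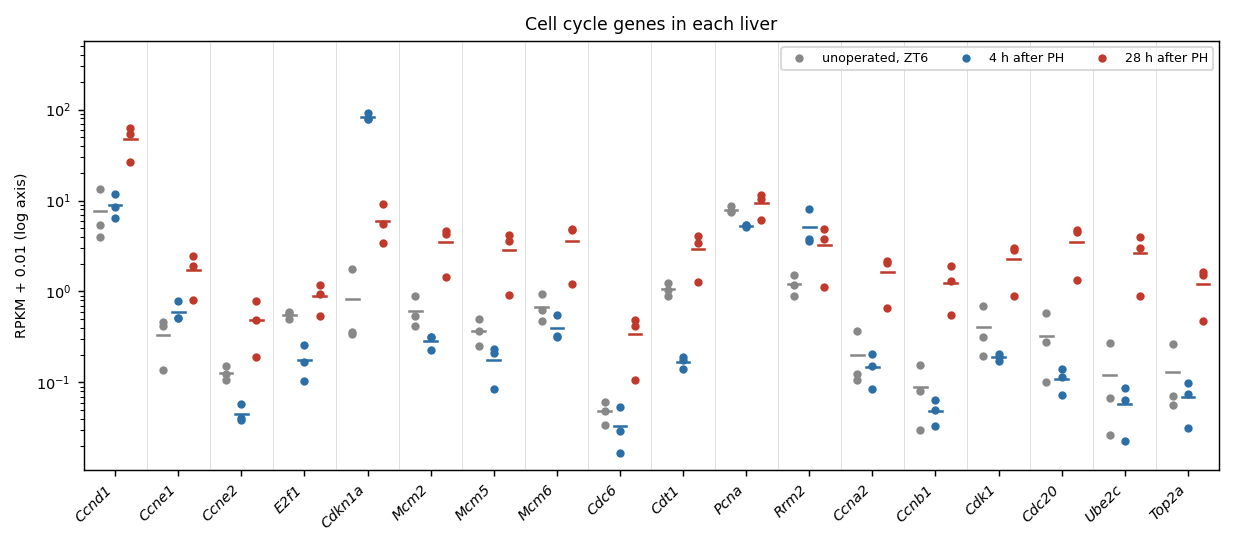
RPKM + 0.01 on a log axis of 18 cell-cycle genes in each unoperated ZT6 liver (grey), each liver 4 hrs after PH (blue) and each liver 28 hrs after PH (red); short lines mark group means, n = 3 each. From Mcm2 to Top2a the red points lie above the blue ones for every gene but Rrm2, with X28 replicate 3 the lowest red point, and Cdkn1a is the only gene shown with every blue point above every red one.

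Among regulators of G1 and of its exit into S phase, 19 of 30 members were called higher (63.3%, against 22.6% of all genes) and 1 lower (3.33%, against 5.72%). Ccnd1, the D-type cyclin that couples growth signals to the cycle, was at 11.9, 6.45 and 8.48 RPKM in the X4 livers and 54.2, 62.6 and 26.4 RPKM in the X28 livers. That is a rise of 2.34 ± 0.42 (adjusted p = 9.2e-06), with C4 livers at 3.93, 13.5 and 5.34 RPKM. Ccne1 rose from 0.590 ± 0.155 to 1.70 ± 0.831 RPKM, Ccne2 from 0.0354 ± 0.0105 to 0.479 ± 0.302 RPKM and the transcription factor E2f1 from 0.166 ± 0.0760 to 0.881 ± 0.329 RPKM. Cdkn2c, an inhibitor of the kinases that bind D-type cyclins, rose too, by 1.74 ± 0.19. The single member that fell was Cdkn1a, the p21 inhibitor of cyclin-dependent kinases, at 79.1, 92.8 and 78.3 RPKM in the X4 livers and 3.42, 5.51 and 9.12 RPKM in the X28 livers. It fell by 3.84 ± 0.76 (adjusted p = 4.1e-05) yet stayed above the 0.345, 1.78 and 0.335 RPKM of C4. Calls were lost with own resting livers for Ccnd1 (0.93) and Ccne1 (0.87).

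Resting livers bear on Cdkn1a and on several genes below. In the 9 C0 livers (unoperated, 0 hrs, which is ZT2) Cdkn1a was at 41.2 to 45.4 RPKM in replicates 4 to 6 and at 1.11 to 4.80 RPKM in the other 6. Of the 289 named genes tested, 40 were higher in all of C0 replicates 4 to 6 than in all of the other 6 C0 livers and 27 were lower. When X28 was set against C0 replicates 1 to 3 and X4 against C0 replicates 4 to 6, the difference between both contrasts was 0.28 for Cdkn1a and 0.93 for Ccnd1, neither of them called, 2.02 for Cdc20 and 2.05 for Mcm5, both called. For the mitosis list 52 members were called higher and for the replication list 29. In this setting, named own resting livers here, 2237 of all 15396 genes were higher and 391 lower, against 3472 and 881 in the main fit. List counts given below with own resting livers stand beside these totals.

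Genes of the DNA damage checkpoint and of repair, many of which act at replication forks, were called higher in 18 of 35 cases (51.4%, against 22.6% of all genes) and lower in 0. Under the same median 11 were higher (31.4%, against 12.5%). Against C4, 1 was higher and 10 lower at 4 hrs, and 7 were higher and 0 lower at 28 hrs. Of all genes, 11.7% and 33.9% were so at 4 hrs, and 14.4% and 18.3% at 28 hrs. Wee1, the kinase that holds back mitosis, was at 0.102, 0.291 and 0.205 RPKM in the X4 livers and 1.51, 1.59 and 0.515 RPKM in the X28 livers. The checkpoint kinase Chek2 was at 0.0735, 0.0628 and 0.0148 RPKM in the X4 livers and 0.771, 0.666 and 0.389 RPKM in the X28 livers. Their rises were 1.61 ± 0.32 (adjusted p = 5.1e-05) and 1.49 ± 0.24 (adjusted p = 7.1e-07), with no overlap between the groups. In the 9 C0 livers Wee1 was at 0.120 to 0.479 RPKM and Chek2 at 0.433 to 0.707 RPKM. Every X4 liver thus lay below every C0 liver for Chek2, and the X28 livers lay near the C0 range. Brca1, of homologous recombination, rose from 0.0961 ± 0.0181 to 0.557 ± 0.150 RPKM. Chek1 was not called (0.36 ± 0.25, adjusted p = 0.27). Among 21 p53 targets 3 (14.3%) were higher and 1 (4.76%), Cdkn1a, was lower, shares below the 22.6% and 5.72% of all genes. The p53 antagonist Mdm2 was not called (-0.07 ± 0.16, adjusted p = 0.77), and Sesn1, Plk2 and the pro-apoptotic Bbc3 rose by 1.39, 1.61 and 1.56. The call was lost with own resting livers for Plk2 (0.33) and Bbc3 (0.79).

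Along the time course after PH, X4 preceded the rise of the mitosis list and X28 lay partway up it. The median member of the mitosis list, in log2(RPKM + 0.25) and in the middle library of each group, was at -1.69 at 4 hrs, -1.71 at 10 hrs, -1.39 at 20 hrs, 0.52 at 28 hrs, 1.96 at 36 hrs and 3.70 at 44 hrs. For the replication list it was at -0.08 at 4 hrs, 0.76 at 10 hrs, 1.16 at 20 hrs, 1.36 at 28 hrs and 2.84 at 36 hrs, with C4 at 0.70, so that X4 lay below the unoperated level. The X28 libraries spanned -0.58 to 0.52 for mitosis and 0.49 to 1.43 for replication, wider than the X4 libraries, which spanned -1.79 to -1.67 and -0.16 to 0.08. Levels of 28 hrs were exceeded later, as Ccnb1 shows: 0.538 to 1.90 RPKM in X28, it was at 11 to 16.2 RPKM in the 3 livers taken at 44 hrs.

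**Figure D3:**
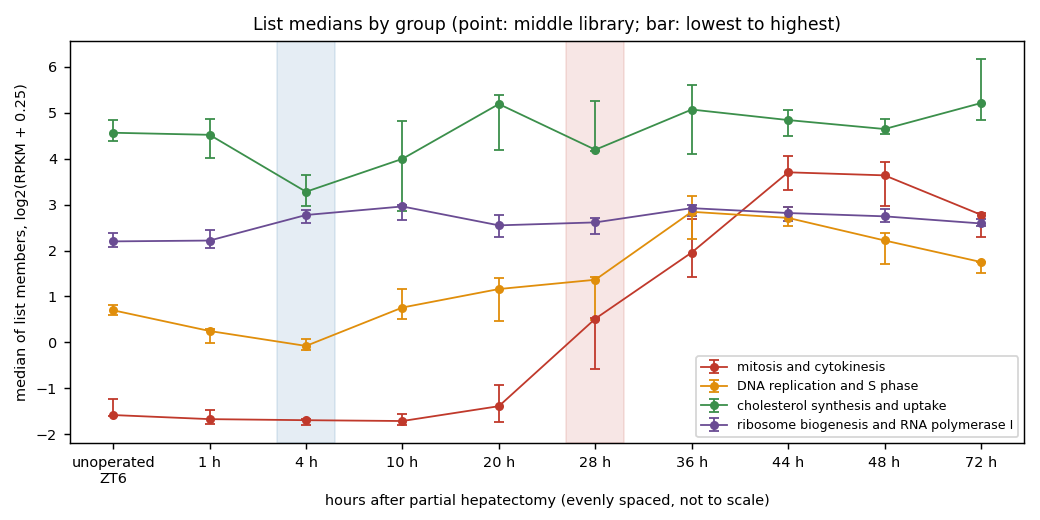
Median of the members of 4 lists in log2(RPKM + 0.25) for unoperated ZT6 livers and for livers taken 1 to 72 hrs after PH, with X4 (blue band) and X28 (red band) marked; points are the middle library of each group and bars run from its lowest to its highest library (n = 3 to 6). The mitosis list is at -1.69 at 4 hrs and at 0.52 at 28 hrs, while the cholesterol list has its lowest point, 3.28, at 4 hrs.

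Immediate-early genes, which are transcribed within minutes of a stimulus, were above C4 in 24 of 37 members at 4 hrs and in 16 at 28 hrs, against 11.7% and 14.4% of all genes. Between 4 and 28 hrs, 10 were called lower (27.0%, against 5.72% of all genes) and 3 higher (8.11%, against 22.6%). When a library was left out 4 to 10 were lower, fewest without X4 replicate 6. Fos was at 2.08, 2.02 and 2.22 RPKM in the X4 livers and 2.15, 3.66 and 2.00 RPKM in the X28 livers. The differences of Fos (0.23 ± 0.61, adjusted p = 0.81), Jun (-0.08 ± 0.43, adjusted p = 0.92) and Myc (-0.04 ± 0.47, adjusted p = 0.99) were smaller than 1 SE, and those of Egr1 and Atf3 did not pass the test. Klf10 (1.82 lower), the NF-kB inhibitor Tnfaip3 (1.70 lower) and the stress gene Gadd45g (1.81 lower) fell. Cyr61, a matricellular target of YAP, was at 1.94, 1.37 and 1.94 RPKM in the X4 livers and 10.2, 17.8 and 4.74 RPKM in the X28 livers. It rose by 2.31 ± 0.42 (adjusted p = 9.2e-06) together with the nuclear receptor Nr4a1 (1.78) and the ERK phosphatase Dusp6 (1.29). The threshold of a call was missed with own resting livers for Nr4a1 (1.18), Dusp6 (1.37), Klf10 (-1.14), Gadd45g (-0.17) and Tnfaip3 (-1.42), with the period term for Gadd45g (-1.35), without X28 replicate 1 for Dusp6 (0.95) and Gadd45g (-1.68), without X28 replicate 2 for Dusp6 (1.16) and Gadd45g (-1.79), without X4 replicate 4 for Dusp6 (1.15) and without X4 replicate 6 for Gadd45g (-1.73) and Tnfaip3 (-1.20).

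Acute-phase genes were above the unoperated level at both times. Against C4, 29 of 31 members were higher at 4 hrs and 26 at 28 hrs, with 0 lower at either time. Of all genes, 11.7% and 14.4% were higher than C4 at these times. Between the times, 7 were called higher (22.6%, the same share as among all genes) and 6 lower (19.4%, against 5.72%); with own resting livers 3 were higher and 5 lower. Steap4, a metalloreductase induced by IL-6, was at 1603, 1057 and 1684 RPKM in the X4 livers and 328, 121 and 155 RPKM in the X28 livers. Serpina3n, a protease inhibitor, was at 4165, 3255 and 4125 RPKM in the X4 livers and 1079.7, 1283 and 1762 RPKM in the X28 livers. Both fell without overlap, by 2.95 ± 0.50 (adjusted p = 2.7e-06) and 1.51 ± 0.28 (adjusted p = 1.2e-05), and stayed above C4 (15.1, 33.9 and 30.9 and 93.5, 60.3 and 119.9 RPKM). The protease inhibitor A2m fell by 3.99 ± 1.00 from 19.9, 3.12 and 8.49 to 0.252, 0.362 and 0.232 RPKM. In the other direction, the carrier proteins Orm2, Hp (haptoglobin) and Hpx (hemopexin) rose. Orm2 was at 156, 153 and 202 RPKM in the X4 livers and 681, 585 and 1288 RPKM in the X28 livers. Hp was at 5608, 4995 and 6434 RPKM in the X4 livers and 11678, 9717 and 12570.0 RPKM in the X28 livers. Their rises were 2.24 ± 0.56 (adjusted p = 0.00095) and 0.99 ± 0.30 (adjusted p = 0.0066). Saa1, at 6669, 6069.5 and 7228 RPKM in the X4 livers and 11581, 10827 and 14094 RPKM in the X28 livers, did not overlap between the groups but missed the threshold (0.86 ± 0.73, adjusted p = 0.37). Fibrinogen Fgb differed by -0.07 ± 0.23 (adjusted p = 0.85). Saa1 and Saa2 are near-identical, and reads that map to several places were split between them by the authors' counting. Genes dropped out of the calls with own resting livers for Orm2 (1.69), Hp (0.95) and Hpx (0.78) and under the same median for Hp (0.79).

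Of 19 genes of IL-6 and STAT3 signalling 4 (21.1%, against 5.72% of all genes) were lower and 3 (15.8%, against 22.6%) higher, the latter being Tyk2, Pias3 and Il11ra1. Socs1, an inhibitor of Janus kinases, was at 5.38, 1.36 and 7.98 RPKM in the X4 livers and 0.551, 0.295 and 0.0683 RPKM in the X28 livers. It fell by 3.02 ± 0.39 (adjusted p = 7.6e-09), with C4 at 0.349, 0.368 and 0.0813 RPKM. Socs3 was at 30.3, 25.5 and 49.6 RPKM in the X4 livers and 15.4, 18.2 and 15.3 RPKM in the X28 livers, without overlap but above the threshold (adjusted p = 0.067), and Stat3 fell by 0.51 ± 0.18 (adjusted p = 0.022). Il6 itself was below the detection threshold and not tested. The neutrophil attractant Cxcl1 fell from 209 ± 42.3 to 45.9 ± 22.3 RPKM, while Cxcl12 rose by 1.80 ± 0.21 (adjusted p = 2.9e-10) to 27.8, 20.5 and 20.5 RPKM, against 28.8, 30.3 and 25.5 RPKM in C4. The C/EBP factors of the acute phase fell: Cebpd was at 21.3, 17.0 and 21.9 RPKM in the X4 livers and 3.18, 4.14 and 2.36 RPKM in the X28 livers and Cebpb went from 91.1 ± 5.92 to 22.7 ± 4.52 RPKM, differences of -2.57 ± 0.52 and -2.01 ± 0.56. With own resting livers Cebpb turned direction, at 0.53, not called. In C0 livers Cebpb was at 42.0 to 55.5 RPKM in replicates 4 to 6 and 7.01 to 23.7 RPKM in the others. Of the genes named here the call was lost with own resting livers for Stat3 (-0.38), Cebpd (-0.47) and Il11ra1 (0.43), under the same median for Il11ra1 (0.49), with the period term for Stat3 (-0.41) and Cebpb (-0.66), without X28 replicate 2 for Stat3 (-0.45) and Cxcl1 (-1.83), without X28 replicate 3 for Stat3 (-0.44), without X4 replicate 4 for Stat3 (-0.45) and Cxcl1 (-2.2) and without X4 replicate 6 for Stat3 (-0.51) and Cxcl1 (-2.20).

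Core clock and clock output genes differed although both groups were taken at the same Zeitgeber time. Of 19 members 7 (36.8%, against 22.6% of all genes) were called higher and 4 (21.1%, against 5.72%) lower at 28 hrs. Against C4, 11 were lower and 5 higher at 4 hrs, and 8 were lower and 1 higher at 28 hrs. Of all genes, 33.9% were lower than C4 and 11.7% higher at 4 hrs, and 18.3% and 14.4% at 28 hrs. Dbp, an output factor that peaks in the light phase, was at 0.157, 0.215 and 0.326 RPKM in the X4 livers and 6.52, 3.62 and 1.68 RPKM in the X28 livers. The C4 livers held 32.2, 8.36 and 45.8 RPKM, so that Dbp rose by 2.95 ± 0.38 (adjusted p = 5.3e-09) and remained below every C4 liver. Tef, of the same PAR bZIP family, was at 0.445, 1.36 and 1.28 RPKM in the X4 livers and 7.28, 5.67 and 4.35 RPKM in the X28 livers, against 10.8, 6.98 and 14.9 RPKM in C4. Nr1d1, the repressor REV-ERB alpha, was at 1.25, 5.61 and 7.51 RPKM in the X4 livers and 24.1, 26.0 and 18.6 RPKM in the X28 livers. Both rose without overlap, by 2.30 ± 0.28 (adjusted p = 1.3e-09) and 2.49 ± 0.63 (adjusted p = 0.0012), as did Per2 (1.29 ± 0.33). The activator Arntl (BMAL1), which runs in antiphase to Nr1d1, was at 6.28, 5.49 and 3.91 RPKM in the X4 livers and 1.08, 1.5 and 2.59 RPKM in the X28 livers. It fell by 1.52 ± 0.23 (adjusted p = 2.9e-07), and Npas2, which pairs with it, and the repressor Nfil3 fell by 1.53 and 1.45.

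At 4 hrs the levels of Dbp and Nfil3 were nearer to those of resting livers at ZT2 (C0) than to those at ZT6 (C4). Dbp, 0.157, 0.215 and 0.326 RPKM in X4, was at 0.108 to 0.407 RPKM in the 9 C0 livers, and Nfil3, 33.5, 35.5 and 26.8 RPKM in X4, at 17.4 to 26.1 RPKM there and at 7.44, 13.5 and 5.73 RPKM in C4. Per1 was not called (-0.81 ± 0.58, adjusted p = 0.28), but was at 3.09 to 3.65 RPKM in C0 replicates 4 to 6 and at 0.0417 to 0.373 RPKM in the other 6. With own resting livers the difference of Nr1d1 was -0.14, not called, and that of Per1 2.58, called.

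Cholesterol synthesis and uptake genes rose from a low point at 4 hrs. Of 24 members tested 13 were called higher (54.2%, against 22.6% of all genes) and 0 lower, with a median difference of 1.16. At 4 hrs 15 were below and 0 above C4, against 33.9% and 11.7% of all genes. At 28 hrs 3 were below and 3 above it, against 18.3% and 14.4%. Mvd, an enzyme of the mevalonate pathway, was at 1.12, 0.540 and 0.658 RPKM in the X4 livers and 20.6, 4.94 and 3.62 RPKM in the X28 livers. Insig1, the sterol-regulated brake on SREBP processing, was at 13.1, 7.45 and 6.52 RPKM in the X4 livers and 75.2, 27.6 and 31.4 RPKM in the X28 livers. Both rose without overlap, by 2.91 ± 0.59 (adjusted p = 5.4e-05) and 2.19 ± 0.47 (adjusted p = 0.00013), as did Stard4 (2.16 ± 0.29) and Sqle (1.62 ± 0.47). X28 replicate 1 was the highest X28 liver for all 13 called members; without it 5 members were called. Calls were lost without X28 replicate 1 for Sqle (1.08).

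In fatty acid and triglyceride synthesis 7 of 22 members were lower (31.8%, against 5.72% of all genes) and 4 higher (18.2%, against 22.6%). Without X28 replicate 2 or X4 replicate 4, 4 were lower, and with own resting livers 1 was lower. Under the same median 2 were higher. Thrsp, a nuclear protein of lipogenic tissues, was at 125, 250.2 and 95.8 RPKM in the X4 livers and 17.7, 5.36 and 5.90 RPKM in the X28 livers. Scd1, which desaturates stearate, was at 1112, 668 and 450.2 RPKM in the X4 livers and 202, 179.9 and 203 RPKM in the X28 livers. They fell without overlap, by 4.08 ± 0.62 (adjusted p = 3.2e-07) and 1.83 ± 0.58 (adjusted p = 0.0087), and so did the fatty acid synthase Fasn (1.67 ± 0.44). The polyunsaturated fatty acid desaturase Fads2 rose by 1.5 ± 0.26, Fads1 by 0.65 ± 0.19 and Gpam, the first enzyme of triglyceride synthesis, by 1.09 ± 0.31. Srebf1 was not called (0.26 ± 0.44, adjusted p = 0.69). Plin2, which coats lipid droplets, was at 492, 531 and 612 RPKM in the X4 livers and 527, 631 and 441 RPKM in the X28 livers. It was above C4 (126, 198 and 96.3 RPKM) at both times and differed by -0.04 ± 0.32 between them (adjusted p = 0.96). The call was lost with own resting livers for Fasn (-1.13) and Scd1 (-1.08), under the same median for Fads1 (0.44), without X28 replicate 1 for Fads1 (0.37) and without X4 replicate 4 for Scd1 (-1.49).

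Car3, the carbonic anhydrase III of hepatocytes, muscle and fat, fell most of all protein-coding genes that met the naming rule. It was at 1073, 1628 and 976 RPKM in the X4 livers and 76.2, 28.0 and 9.58 RPKM in the X28 livers. The fall of 5.43 ± 0.63 (adjusted p = 3.4e-10) left no overlap, and X4 livers were within the range of C4 (2004, 762 and 1796 RPKM). Car3 lies at chr3:14863538-14872351 (mm9, plus strand). Other genes in this group were the methyltransferase Inmt, from 112 ± 29.3 to 9.80 ± 7.10 RPKM, the mTORC1 inhibitor Ddit4, from 17.2 ± 6.87 to 1.17 ± 0.933 RPKM, the hepcidin paralogue Hamp2, from 18.6 ± 2.20 to 1.62 ± 0.680 RPKM, the ADP-ribosyltransferase Tiparp, from 18.3 ± 2.10 to 1.57 ± 0.126 RPKM, the actin regulator Lrrc16a, from 8.74 ± 0.277 to 0.543 ± 0.0374 RPKM, the centriolar Fbf1, from 9.02 ± 0.757 to 0.653 ± 0.147 RPKM, Gm4956, from 5.06 ± 0.428 to 0.312 ± 0.136 RPKM, and the CAR target Cyp2b10, from 25.5 ± 15.6 to 2.34 ± 1.14 RPKM. The threshold of a call was missed with own resting livers for Ddit4 (-0.93) and Cyp2b10 (-0.35).

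Ly6d, a GPI-anchored surface protein, rose most among genes meeting the rule. It was at 3.68, 2.86 and 2.54 RPKM in the X4 livers and 49.9, 64.7 and 52.8 RPKM in the X28 livers. The difference was 4.10 ± 0.59 (adjusted p = 1.2e-07), with C4 at 0.493, 0.714 and 0.646 RPKM; the gene lies at chr15:74592486-74593997 (mm9, minus strand). Prtn3, a serine protease best known from neutrophil granules, was at 0.114, 0.0611 and 0.0574 RPKM in the X4 livers and 9.47, 2.69 and 2.19 RPKM in the X28 livers. It rose by 3.65 ± 0.49 (adjusted p = 1.5e-08), while the neutrophil markers S100a8 and S100a9 were not called (-1.19 and -1.06). Nipal1, a magnesium transporter, rose from 0.467 ± 0.171 to 8.36 ± 1.47 RPKM, the LIM protein gene Jub from 0.710 ± 0.119 to 8.28 ± 1.85 RPKM, the Wnt modulator Dact2 from 0.277 ± 0.0769 to 4.37 ± 0.669 RPKM, Tlr12 from 0.680 ± 0.238 to 7.51 ± 1.51 RPKM and the F-box protein gene Fbxo21 from 1.70 ± 0.147 to 15.4 ± 4.21 RPKM. In C4, Dact2 and Fbxo21 were at 4.73 ± 0.329 and 22.8 ± 4.85 RPKM. Both were called lower than C4 at 4 hrs and were not called against it at 28 hrs. Nipal1, Jub and Tlr12, at 1.47 ± 1.31, 1.74 ± 0.515 and 0.984 ± 0.0824 RPKM in C4, were called higher than C4 at 28 hrs. Osgin1, an oxidative stress response gene, went from 8.72 ± 2.12 to 96.1 ± 36.8 RPKM, against 138 ± 36.7 RPKM in C4. Genes dropped out of the calls with own resting livers for Osgin1 (0.44).

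**Figure D4:**
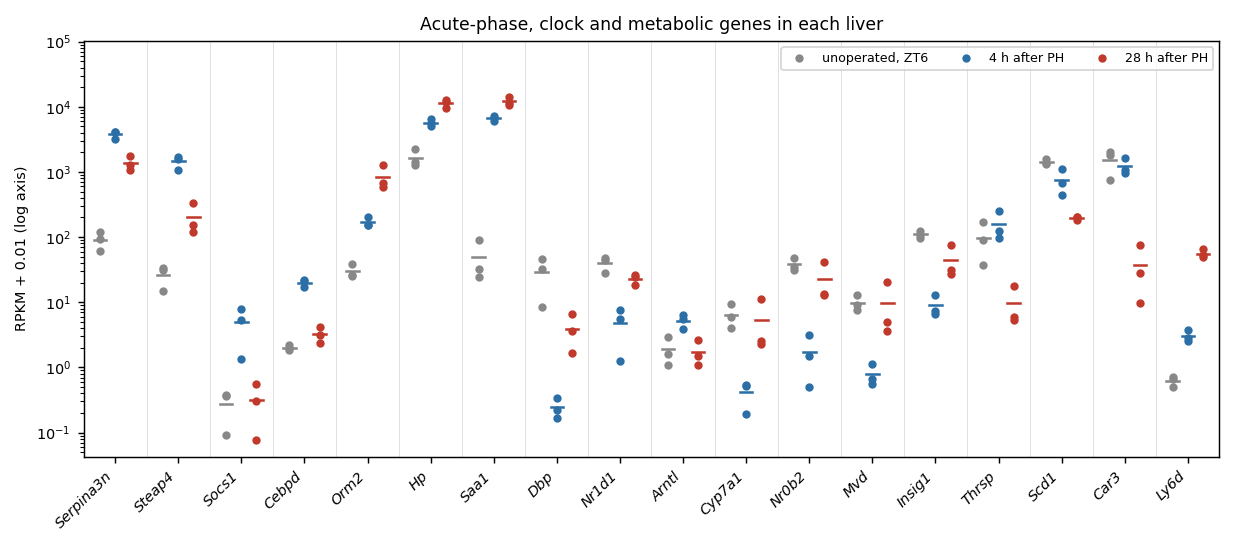
RPKM + 0.01 on a log axis of 18 acute-phase, clock, bile acid, cholesterol, lipid and other named genes in each unoperated ZT6 liver (grey), each liver 4 hrs after PH (blue) and each liver 28 hrs after PH (red); short lines mark group means, n = 3 each. Blue and red points do not overlap for any of the genes shown, and Car3 (976 to 1628 RPKM at 4 hrs, 9.58 to 76.2 at 28 hrs) and Ly6d (2.54 to 3.68 and 49.9 to 64.7) lie at opposite ends of the differences.

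Bile acid genes were called higher in 8 of 29 members (27.6%, against 22.6% of all genes) and lower in 3 (10.3%, against 5.72%), and 5 were higher without X4 replicate 4. Cyp7a1, the rate-limiting enzyme of bile acid synthesis, was at 0.506, 0.523 and 0.182 RPKM in the X4 livers and 11.1, 2.53 and 2.31 RPKM in the X28 livers. Its repressor Nr0b2 (SHP) was at 0.496, 3.11 and 1.46 RPKM in the X4 livers and 13.4, 41.0 and 13.1 RPKM in the X28 livers. Klb, the co-receptor for FGF15 and FGF21, was at 0.905, 1.16 and 0.812 RPKM in the X4 livers and 6.39, 7.18 and 8.22 RPKM in the X28 livers. The 3 genes rose by 2.78 ± 0.69 (adjusted p = 0.00089), 3.59 ± 0.63 (adjusted p = 5.7e-06) and 2.64 ± 0.27 (adjusted p = 6.6e-12) from levels below C4, where Cyp7a1 was at 3.97, 5.87 and 9.39 RPKM. The sterol hydroxylase Cyp27a1, the conjugating enzyme Baat and the peroxisomal oxidase Acox2 fell by 0.79, 0.81 and 0.52. Cyp8b1 and the transporters Slc10a1 and Abcb11 were not called. In the PPAR alpha list 8 of 33 members (24.2%) were higher and 2 (6.06%) lower, shares near those of all genes. Fgf21 was at 0.426, 1.21 and 1.57 RPKM in the X4 livers and 6.20, 11 and 6.49 RPKM in the X28 livers. It rose by 2.70 ± 0.74 (adjusted p = 0.0026), Acot3 and Acot4 by 2.84 and 1.64 and Ppara by 1.19 ± 0.36. Of the genes named here the call was lost with own resting livers for Nr0b2 (2.34), Fgf21 (2.34), Cyp27a1 (-0.44) and Acox2 (-0.23), with the period term for Acox2 (-0.43), without X28 replicate 1 for Acox2 (-0.48) and without X4 replicate 5 for Acox2 (-0.47).

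Of the glucocorticoid and fasting responsive genes, 15 of 20 had been above C4 at 4 hrs and 10 were above it at 28 hrs, against 11.7% and 14.4% of all genes. Between the times 6 fell (30.0%, against 5.72%) and 2 rose (10.0%, against 22.6%). With own resting livers, however, 0 were lower and 7 higher, and 1 was higher when any 1 of the 6 libraries was left out. Tat, tyrosine aminotransferase, was at 1562, 1519.6 and 1563 RPKM in the X4 livers and 359.7, 567 and 561 RPKM in the X28 livers. Lpin1, a phosphatidate phosphatase induced by fasting, was at 48.5, 111 and 44.1 RPKM in the X4 livers and 3.86, 7.91 and 16.2 RPKM in the X28 livers. They fell by 1.67 ± 0.41 (adjusted p = 0.00081) and 2.92 ± 0.87 (adjusted p = 0.0056), and the serine dehydratase Sds by 1.34 ± 0.36. All 3 turned direction with own resting livers (0.15, 1.69 and 0.73, none of them called), and Lpin1 was at 106 to 167 RPKM in C0 replicates 4 to 6 against 4.55 to 13.2 RPKM in the other 6. Pck1, of glucose production, rose by 1.00 ± 0.40 (adjusted p = 0.042). The glycolytic regulator Pfkfb3 was at 20.7, 16.5 and 22.6 RPKM in the X4 livers and 2.67, 1.90 and 1.34 RPKM in the X28 livers. It fell by 3.22 ± 0.55 (adjusted p = 3.7e-06), while Pfkfb1 and the glucose transporter Slc2a1 rose by 1.16 and 1.78. Calls were lost with own resting livers for Pfkfb3 (-0.49), under the same median for Pck1 (0.79), with the period term for Lpin1 (-1.89), without X28 replicate 1 for Pck1 (1.03) and Lpin1 (-2.42), without X28 replicate 2 for Pck1 (0.98), without X28 replicate 3 for Pck1 (1.00), without X4 replicate 4 for Pck1 (1.11), without X4 replicate 5 for Pck1 (1.04) and without X4 replicate 6 for Pck1 (0.86).

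Most called ribosome assembly factors were lower. Among 68 ribosome biogenesis genes 19 were called lower (27.9%, against 5.72%) and 3 higher; under the same median 34 were lower (50%, against 10.9%) and 0 higher. At 4 hrs 36 were above C4, and at 28 hrs 18, where 11.7% and 14.4% of all genes were above it. Heatr1, of the small-subunit processome, was at 11.1, 8.61 and 11.4 RPKM in the X4 livers and 4.27, 4.36 and 3.77 RPKM in the X28 livers. It fell by 1.27 ± 0.16 (adjusted p = 1.6e-09), followed by Rrp1b (1.05) and Nle1 (0.92). Nucleolin (Ncl) and fibrillarin (Fbl) were not called. The 77 cytosolic ribosomal proteins were called higher in 24 cases (31.2%, against 22.6%) and lower in 0, with a median difference of 0.42. Under the same median 8 were higher (10.4%), a smaller share than the 12.5% of all genes. The largest rise was that of Rpl41, 0.90 ± 0.16 (adjusted p = 7e-06), and all members lay between 0.06 and 0.90. Without X28 replicate 3 the count was 47 and without X28 replicate 1 it was 13, the highest and the lowest X28 liver being these replicates, 1 and 3, for all 24. Against C4 61 members were lower at 4 hrs and 10 at 28 hrs, where 33.9% and 18.3% of all genes were lower.

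Cytoskeletal genes were called higher in 20 of 35 members (57.1%, against 22.6% of all genes) and lower in 0. Under the same median 12 (34.3%, against 12.5%) were higher and 2 (5.71%, against 10.9%) lower. Tubb5, the beta-tubulin of dividing cells, was at 7.23, 4.94 and 6.54 RPKM in the X4 livers and 23.6, 19.9 and 12.4 RPKM in the X28 livers. It rose by 1.51 ± 0.29 (adjusted p = 2.7e-05), Tuba1b by 1.25 ± 0.23 and the nuclear lamin Lmna by 1.20 ± 0.18. Actg1, at 149, 182 and 228 RPKM in the X4 livers and 133, 183 and 121 RPKM in the X28 livers, was already far above C4 (15.1, 31.8 and 16.0 RPKM) at 4 hrs and differed by -0.36 ± 0.40 (adjusted p = 0.52). The call was lost with own resting livers for Tuba1b (0.71) and Tubb5 (0.88).

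Genes that depend on Wnt signals from the central vein were mostly higher. Of 19 members 12 were called higher (63.2%, against 22.6% of all genes) and 0 lower, with a median difference of 1.00, the same 12 in number in each leave-one-out fit. Against C4, 9 were lower and 1 higher at 4 hrs, and 1 was lower and 9 higher at 28 hrs. Of all genes, 33.9% and 11.7% were so at 4 hrs, and 18.3% and 14.4% at 28 hrs. The median member lay 0.49 below C4 at 4 hrs and 0.28 above it at 28 hrs. Axin2, a direct target and feedback inhibitor of the pathway, was at 0.612, 0.794 and 0.553 RPKM in the X4 livers and 1.95, 1.63 and 1.72 RPKM in the X28 livers. Oat, ornithine aminotransferase of the pericentral rim, was at 204, 309.6 and 267 RPKM in the X4 livers and 710.4, 1143 and 927 RPKM in the X28 livers. Both rose without overlap, by 1.17 ± 0.23 (adjusted p = 4.2e-05) and 1.83 ± 0.30 (adjusted p = 1.4e-06), as did Tcf7 (1.77), Rnf43 (1.70) and Tbx3 (1.45). Glul, glutamine synthetase of the same cells, was at 389, 341 and 464 RPKM in the X4 livers and 323, 272 and 257 RPKM in the X28 livers and was not called (-0.48 ± 0.21, adjusted p = 0.067), nor were Cyp2e1 and Cyp1a2. With own resting livers 6 members were higher. The threshold of a call was missed with own resting livers for Tbx3 (0.87).

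Major urinary proteins, pheromone carriers secreted by male liver, made up most of a list in which 16 of 23 members were called lower (69.6%, against 5.72% of all genes) and 0 higher. Against C4, 9 were higher and 1 lower at 4 hrs, and 0 were higher and 7 lower at 28 hrs. Of all genes, 11.7% and 33.9% were so at 4 hrs, and 14.4% and 18.3% at 28 hrs. The median member lay 0.64 above C4 at 4 hrs and 0.19 below it at 28 hrs. Mup3 was at 7972, 7784 and 7548 RPKM in the X4 livers and 4162, 4110.3 and 4316 RPKM in the X28 livers. It fell by 0.89 ± 0.20 (adjusted p = 0.00023). The other Mup genes named by rule, Mup17 (1.52 ± 0.51 lower) and Mup20 (-0.89 ± 0.39, adjusted p = 0.066), overlap in sequence with the rest of the family, so that reads could be split between copies and the members are not independent. Without X28 replicate 2, 7 members were called. Elovl3, a male-biased elongase, fell from 183 ± 38.9 to 62.1 ± 5.89 RPKM. Serpina4-ps1, an annotated pseudogene, was at 316, 312 and 306 RPKM in the X4 livers and 6.54, 6.14 and 2.65 RPKM in the X28 livers, a fall of 5.96 ± 0.82 (adjusted p = 3e-08). Igf1, which like these genes responds to growth hormone, differed by 0.01 ± 0.16 (adjusted p = 0.99), and the receptor Ghr fell by 0.72 ± 0.17. Genes dropped out of the calls with own resting livers for Elovl3 (-1.33) and Mup17 (-1.75), without X28 replicate 2 for Mup17 (-1.37) and without X4 replicate 5 for Elovl3 (-1.39).

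Markers of cell types were read for the make-up of the samples. Albumin (Alb), the defining hepatocyte transcript, was at 25078, 26393 and 25580.0 RPKM in the X4 livers and 18678, 18901 and 16059 RPKM in the X28 livers and fell by 0.53 ± 0.20 (adjusted p = 0.031). Of 10 hepatocyte markers 3 (30.0%, against 22.6% of all genes) were higher and 1 (10.0%, against 5.72%) was lower. Haemoglobin and mesothelial transcripts were also higher. The shares of erythroid and mesothelial markers called higher lay above the 22.6% of all genes. Of 5 erythroid markers tested 4 were higher and 1, Alas2, was lower, with summed levels of 40.2 to 55.5 RPKM in X4, 70.1 to 104 in X28 and 91.7 to 152 in C4; Hba-a1 was at 1.42, 2.65 and 7.73 RPKM in the X4 livers and 19.4, 12.5 and 20.0 RPKM in the X28 livers, and 2 of 10 listed markers were at 0 in all 6 libraries. Haemoglobin genes have near-identical copies that could share reads. Of 7 mesothelial markers 6 were higher, but 2 under the same median and 2 without X28 replicate 3, X4 replicate 4 or X4 replicate 6, 3 without X28 replicate 1, with sums of 0.527 to 2.15 RPKM in X4, 4.18 to 7.71 in X28 and 3.04 to 7.89 in C4. These cells, which line the organ surface, also express Krt19, named among cholangiocyte and progenitor markers. Their part in the results was not tested. Of the genes named here the call was lost with own resting livers for Alb (-0.42) and Hba-a1 (1.57), without X28 replicate 1 for Alb (-0.56), without X28 replicate 3 for Alb (-0.45), without X4 replicate 4 for Alb (-0.54), without X4 replicate 5 for Alb (-0.51) and without X4 replicate 6 for Alb (-0.53).

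Macrophage marker sums were 29.0 to 38.0 RPKM in X4, 45.8 to 115 in X28 and 75.3 to 103 in C4, with 2 of 14 called, both higher, a count of 5 without X28 replicate 1 and of 1 without X28 replicate 3, X4 replicate 5 or X4 replicate 6. Stellate and fibroblast sums were 48.7 to 64.7 in X4 and 68.0 to 72.7 in X28 (5 of 14 higher, 0 lower, and 3 higher without X28 replicate 2), and endothelial sums 31.9 to 35.9 and 41.1 to 48.3 (3 of 15 higher, 0 lower). For cholangiocytes the sums were 16.8 to 21.2 and 23.6 to 26.8 (3 of 8 higher, 1 lower). Neutrophil sums were 4.92 to 10.8 and 2.98 to 4.58 (1 of 13 higher and 1 lower, neither called without X28 replicate 2, and the lower one called in only 1 of the 6 leave-one-out fits, that without X4 replicate 5), and T and NK cell sums 1.22 to 1.80 and 0.625 to 1.5 (2 of 8 lower, but 0 without X4 replicate 4 and 1 without X28 replicate 3 or X4 replicate 6). B and plasma cell sums were 1.63 to 2.69 and 1.23 to 3.41 (median difference 0.05 over 7 members). Pancreas and muscle markers had sums of 5.28 to 10.1 and 0.266 to 0.762 RPKM over the 6 libraries, with 1 member of each list tested and not called. Macrophage, stellate, endothelial and cholangiocyte sums were higher in every X28 than in every X4 liver. Stellate, endothelial and cholangiocyte sums were nevertheless lower in every X28 than in every C4 liver. In C4 they were 87.1 to 99, 62.7 to 65.4 and 37 to 50.2 RPKM. The shares of members called higher were 14.3% for macrophages, 20% for endothelial cells and 7.69% for neutrophils, below the 22.6% of all genes. They were 35.7% for stellate cells and 37.5% for cholangiocytes, above that share. Called lower were 7.69% of neutrophil, 25% of T and NK cell and 12.5% of cholangiocyte markers, against 5.72% of all genes. The part of these cell types in the results was not tested either.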

How the data were processed

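Poly(A) RNA of individual mouse livers was sequenced by the authors on strand-specific single-end libraries. Per the labels and the study's methods, reads were mapped to the mouse genome mm9 with TopHat2 2.0.13 and counted per Ensembl gene with featureCounts on the transcribed strand, reads with several positions being shared between them. The deposited values are log2 RPKM, with genes without reads at -14.29. Values were converted back to RPKM, 0.25 was added, and log2 values of 15396 genes above log2 RPKM -1.5 in at least 1 library were fitted with limma 3.58.1 (R 4.3.3, eBayes with trend) over all 80 labelled libraries in 19 groups, so that all share 1 estimate of spread. Contrasts were X28 minus X4, X4 minus C4 and X28 minus C4, with Benjamini-Hochberg adjustment. The code was tested on simulated data. Depth, estimated from the steps between low values, was 28.3 to 30.2 M (mega) reads in X4, 28.2 and 24.0 M in X28 replicates 1 and 3 and 20.1 to 23.4 M in C4, where 82.2 to 86.7% of low values came out whole within 0.05 reads, too few for a count test. For X28 replicate 2 only 44.0% did, so that its estimate, 33.3 M, is uncertain.

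The members, gene lists and motifs were chosen with earlier results of these data known. Named genes are the 12 largest rises and 12 largest falls among called protein-coding genes without overlap and with a mean log2 RPKM above 0 in the higher group, the anchor genes of each list, and the 3 called members of each pathway list with the largest rise and fall. Genes that the lists hold beyond these are named only where a count of called or uncalled members is spelled out, chosen after their values were seen. Of the deposited columns, 4 match no labelled sample and were not used; 7 labelled samples, X4 replicates 1 to 3 among them, have no column analysed here. Promoters came from a RefSeq table on GRCm38.p6 and gene positions from mm9; the builds were not mixed. Alternatives were other pseudocounts, filters, scalings, sample sets, a period term and each group against resting C0 livers of its own replicate set. Some genes are not reported here.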

Additional observations from a re-analysis of the deposited data

How the results depend on the processing

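No paired analysis was possible because X28 replicates 1 to 3 and X4 replicates 4 to 6 share no replicate number. For X28 against X4, higher and lower calls were 2254 and 608 with a pseudocount of 1, 1919 and 1679 with every library at the same median, 2237 and 391 with own resting livers, and 978 and 358 beyond a fold of 1 on the log2 scale; the other alternatives kept both counts within 1.5 times. Leaving out 1 library gave 3013 to 3874 higher and 739 to 903 lower. For X4 against C4, 2964 were higher and 3293 lower with the same median, and for X28 against C4 1859 were lower with a pseudocount of 1. With a period term, added after seeing the data, X4 against C4 gave 1045 higher and 4853 lower, and X28 against C4 881 higher and 1563 lower.

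With the same median, called members became 34 lower for ribosome biogenesis, and 8 higher for ribosomal proteins, 12 for the cytoskeleton and 11 for DNA damage. With own resting livers, an alternative for lists added after seeing the data, they became 3 lower for immediate-early genes, 11 higher for G1 regulators, 29 for replication, 11 lower for ribosome biogenesis, 8 higher for ribosomal proteins, 7 lower for urinary proteins, 3 higher for the cytoskeleton, 9 for DNA damage and 6 for Wnt-dependent genes. Leaving out 1 library gave 4 to 10 lower for immediate-early genes, 11 to 24 for ribosome biogenesis and 7 to 15 for urinary proteins, and 13 to 47 higher for ribosomal proteins, 5 to 15 for cholesterol, 13 to 19 for the cytoskeleton, 12 to 23 for DNA damage, 42 to 56 for replication and 60 to 62 for mitosis (all but the fits without X28 replicate 2 added after seeing the data). The cause was not tested.

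Of 289 named genes, 213 were called. With own resting livers 86 lost their call and 6 gained one without a change of sign. A further 11 changed sign and are not in these counts. Of the 11, Mt1 (2.66), Per1 (2.58), Arg1 (0.70) and Hnf4a (0.57) were called there but not in the main fit. The others, Cdkn1a (0.28), Nr1d1 (-0.14), Tat (0.15), Cebpb (0.53), Lpin1 (1.69), Plin4 (0.63) and Sds (0.73), lost their call. This alternative rests on C0 replicates 4 to 6, which stood apart from the other 6 C0 livers in 40 (above) and 27 (below) of the 289 genes, and on replicate numbers following the periods. Under the period term 22 lost their call and 6 gained one, and under the same median 25 and 7; neither reversed any. Depth limits genes below 0.25 RPKM, where X28 replicate 2 carries additional low values.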

Other observations

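Of 27 genes of the unfolded protein response 6 (22.2%) were called higher and 2 (7.41%) lower at 28 hrs, shares near the 22.6% and 5.72% of all genes; with own resting livers 2 were higher and 3 lower. Pdia4, a disulfide isomerase, was at 49.5, 35.1 and 38.0 RPKM in the X4 livers and 110.4, 88.4 and 91.3 RPKM in the X28 livers. It rose by 1.25 ± 0.31 (limma, adjusted p = 0.00094) and the co-chaperone Dnajb11 by 1.00 ± 0.24 (adjusted p = 0.00059), whereas the transcription factor Xbp1 fell by 0.99 ± 0.28 (adjusted p = 0.0032). Ddit3, Atf4 and the chaperone Hspa5 were not called (0.30, -0.14 and 0.51). Of 20 heat shock genes 6 (30.0%, against 22.6%) were higher and 1 (5.0%, against 5.72%) lower, and 2 were higher with own resting livers. Hsph1 rose from 2.91 ± 1.19 to 9.04 ± 3.82 RPKM and Stip1 from 15.9 ± 2.06 to 36.8 ± 9.97 RPKM (mean ± SD, n = 3), and Hspa1a was not called (0.45 ± 0.53, adjusted p = 0.54). Calls were lost with own resting livers for Pdia4 (0.12), Dnajb11 (0.13), Hsph1 (0.56) and Stip1 (0.67), without X28 replicate 1 for Hsph1 (1.23) and without X4 replicate 5 for Hsph1 (1.33).

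Single receptors and genes of metal handling differed too. Erbb3, a receptor of the EGF receptor family, was at 7.19, 7.34 and 5.09 RPKM in the X4 livers and 22.5, 23.0 and 25.9 RPKM in the X28 livers. It rose by 1.84 ± 0.27 (adjusted p = 1.4e-07) with C4 at 19.3, 17.4 and 16.9 RPKM, and the insulin receptor substrate Irs1 rose by 1.65 ± 0.27 while Irs2 fell by 1.37 ± 0.46. The activin receptor Acvr1b fell from 10.4 ± 3.08 to 2.93 ± 0.388 RPKM and the inhibitor Smad7 by 1.28 ± 0.26. Slc30a10, a manganese exporter, was at 19.5, 19.8 and 20.6 RPKM in the X4 livers and 5.62, 5.88 and 5.80 RPKM in the X28 livers. It fell by 1.75 ± 0.19 (adjusted p = 2.5e-11), to within the range of C4 (5.32, 8.86 and 5.38 RPKM), while the zinc exporter Slc30a1 rose by 1.35 ± 0.24. Hamp, the iron hormone hepcidin, fell from 4259.9 ± 968 to 1273 ± 542 RPKM, and Hfe2 (hemojuvelin), which promotes its transcription, rose by 1.56 ± 0.22. The nuclear receptor Nr1i3 (CAR) was at 4.56, 8.29 and 5.11 RPKM in the X4 livers and 19.1, 20.4 and 23.8 RPKM in the X28 livers. It rose by 1.82 ± 0.38 (adjusted p = 0.00010), in the same livers in which its target Cyp2b10 fell by 3.24 ± 0.73. The call was lost with own resting livers for Cyp2b10 (-0.35), Hamp (-1.11), Slc30a1 (0.77), Irs2 (-1.46) and Smad7 (-0.57), without X28 replicate 1 for Hamp (-1.41), without X28 replicate 2 for Irs2 (-1.19) and without X4 replicate 6 for Irs2 (-1.28).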
